A study of Mus musculus with 2 samples.

Results

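The CXC and CX3C chemokine genes of mouse sarcoma cells were compared between a library in which circCsnk1g3, a circular RNA of the Csnk1g3 gene, was targeted and its control library. The members are 9 genes taken by symbol from the 25509 genes of the count table: Cxcl1, Cxcl2, Cxcl5, Cxcl9, Cxcl10, Cxcl12, Cxcl14, Cxcl16 and Cx3cl1. The cells were soft-tissue sarcoma cells of genotype p53-/-Ccne1+ on the C57BL/6 background. They started as mesenchymal stem cells without p53 that overexpressed Ccne1, grew as subcutaneous tumors in a primary mouse, were seeded into the lungs of secondary mice, and were recovered from the lung foci. They were then transduced with a hairpin vector, either the control hairpin (shCTR) or a hairpin against the backsplice junction of circCsnk1g3 (shcircCsnk1g3), so that loss of p53, overexpressed Ccne1, passage through mice and transduction were common to both. Poly(A) RNA was sequenced from 1 library of each. With 1 library per condition there was no replicate check, no test between conditions and no p-value. Whether the cells descend from 1 clone or several was not given in the sources used here.

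The library of shcircCsnk1g3 cells held 38792143 counts and that of shCTR cells 42709996. Levels are given as CPM, counts relative to library size after scaling by TMM, a method that matches the libraries on the bulk of their genes. Fold changes are log2 ratios of shcircCsnk1g3 over shCTR with a prior count of 2, and the range after each is the exact 95% interval of the ratio of counts. It covers counting error only, neither culture-to-culture spread nor amplification duplicates, and compares 2 libraries rather than 2 conditions. Csnk1g3 itself, read from its linear transcript, had 2159 counts in shcircCsnk1g3 cells and 2411 in shCTR cells, a log2 fold change of -0.05 (-0.14 to 0.03). The circular RNA has no poly(A) tail, so its depletion was not measured by these libraries. Mesenchymal markers were high in both libraries, with 10088 and 10981 summed CPM over 7 genes, although the count of Thy1 was 0 and 1. Leukocyte markers summed to 3.14 and 4.73 CPM over 10 genes, with 2 of the 10 past the count minimum, Cd68 at 87 and 155 counts and Cd74 at 33 and 37, Ptprc (CD45) at 1 and 0 counts and Itgam, Adgre1, Lyz2, Cd3e and S100a8 at 0 in both. Endothelial markers summed to 0.485 and 0.686 CPM over 5 genes, with 1 past the count minimum, Cdh5 at 10 and 16 counts, Pecam1 at 7 and 7, and Kdr at 0 in both. Lung epithelial markers summed to 2.37 and 1.23 CPM over 5 genes, nearly all of it Krt8 (92 and 46 counts), and Epcam, Sftpc and Scgb1a1 were at 0 in both. The part of these other cell types' markers in the chemokine values was not tested. In such bulk RNA, fewer cells that express a gene and less RNA per cell cannot be told apart.

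Chemokines are small secreted proteins that direct the movement of leukocytes along their gradients, and the families are named for the spacing of the cysteines near the start of the mature protein. CXCL1, CXCL2 and CXCL5 attract neutrophils through the receptor CXCR2. CXCL9 and CXCL10 are induced by interferons and attract T cells and NK cells through CXCR3. CXCL12, made by many stromal and mesenchymal cells, acts on CXCR4 and is scavenged by ACKR3, while CXCL14 is a chemokine of epithelia and fibroblasts whose receptor is debated. CXCL16 and CX3CL1 are made as membrane-bound proteins that are shed by metalloproteases and that bind CXCR6 and CX3CR1.

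Several of these genes are textbook targets of the transcription factor NF-kappaB or of interferon signaling, so their promoters were searched for motifs of these pathways. Each promoter was the RefSeq window on GRCm38.p6 from 250 bases before to 50 after the start of the gene, available for 7 of the 9 members. Cxcl5 and Cxcl16 had no entry. On both strands, the kappaB consensus, the sequence that NF-kappaB binds, was found in Cxcl1, Cxcl2 and Cxcl10, against 8.46% of 32851 promoters of the same length. The core of the interferon-stimulated response element, written GAAA, any 2 bases and GAAA, was found in Cxcl10 and Cxcl14, against 3.44% of promoters. Neither motif was found in the windows of Cxcl9, Cxcl12 or Cx3cl1. The stretches below hold the matches of the members that could be measured, and of the neighboring gene Cxcl3, which was added for its likeness to Cxcl2. Each reads 5′ to 3′ on the strand of its gene, with the matching bases in capitals.
Cxcl1 kappaB, chr5:90891165-90891194: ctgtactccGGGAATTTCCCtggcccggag
Cxcl2 kappaB, chr5:90903793-90903822: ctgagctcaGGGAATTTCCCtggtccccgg
Cxcl3 kappaB, chr5:90786019-90786048: agctgcgggGGGAATTTCCCcagcccgggc
Cxcl10 kappaB near the start, chr5:92348973-92349002: cggtttacaGGGGACTTCCCtcgggttgcg
Cxcl10 kappaB farther out, chr5:92349029-92349058: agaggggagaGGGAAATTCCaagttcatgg
Cxcl10 interferon-stimulated element, chr5:92349083-92349112: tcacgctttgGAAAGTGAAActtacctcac

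Cxcl1, Cxcl2 and Cxcl3 carried the same GGGAATTTCCC run, in which a match on the plus strand and a match on the minus strand overlap. It began 71 bases before the start in Cxcl1, 97 in Cxcl2 and 73 in Cxcl3. In Cxcl10 the kappaB matches began 104 and 159 bases before the start and the interferon-stimulated element 213 bases before it, with no overlap between them. A match is a description of the letters and not evidence that a factor was bound, and Cxcl1 and Cxcl2, which share theirs, had very different counts, as given next.

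The 9 genes covered more than 3 orders of magnitude in level. CX3CL1 had the most abundant transcript, with Cx3cl1 at 103 CPM per kilobase in shcircCsnk1g3 cells and 105 in shCTR cells. Cxcl1 followed at 36.7 and 28.9, and Cxcl10 at 14.0 and 8.53 CPM per kilobase. Lower levels were measured for Cxcl12, at 2.86 and 8.16 CPM per kilobase, Cxcl16, at 2.90 and 2.47, and Cxcl5, at 1.16 and 1.69. Cxcl2, at 0.0617 and 0.0344 CPM per kilobase, and Cxcl9, at 0.0265 and 0.0573, lay close to the level of 3 counts, and Cxcl14 had no count in either library, which by the limit of 3 counts allows up to 0.0419 and 0.0389 CPM per kilobase.

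Most neighbors in this order differed beyond counting error, with exceptions that involved Cxcl12 and the genes near the floor. In shCTR cells Cxcl12 (8.16 CPM per kilobase, Poisson 95% interval 7.80 to 8.53) was level with Cxcl10 (8.53, interval 7.95 to 9.14). In shcircCsnk1g3 cells it was level with Cxcl16, at 2.86 (2.65 to 3.10) against 2.90 (2.59 to 3.24) CPM per kilobase. Cxcl2 and Cxcl9 could not be ordered in either library at this depth. The ratio of the level of Cxcl10 to that of Cxcl12 was 1.05 in shCTR cells and 4.90 in shcircCsnk1g3 cells, and that of Cxcl1 to Cxcl12 was 3.54 and 12.8. As a share of the summed level of the 9 genes, Cx3cl1 held 67.8% in shCTR cells and 64.1% in shcircCsnk1g3 cells, Cxcl1 18.7% and 22.8%, Cxcl10 5.51% and 8.71%, and Cxcl12 5.27% and 1.78%. These levels use the longest annotated transcript, which for Cxcl1, Cxcl2, Cxcl5 and Cxcl10 is not a coding one. With the longest coding transcript, Cxcl1 was at 72.1 and 56.7 CPM per kilobase and Cxcl10 at 23.1 and 14.1 (shcircCsnk1g3 and shCTR), so that Cxcl10 then stood above Cxcl12 in shCTR cells too, and Cx3cl1 held 50.1% and 55.7% of the summed level. The fold changes do not depend on the length used.

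**Figure D1:**
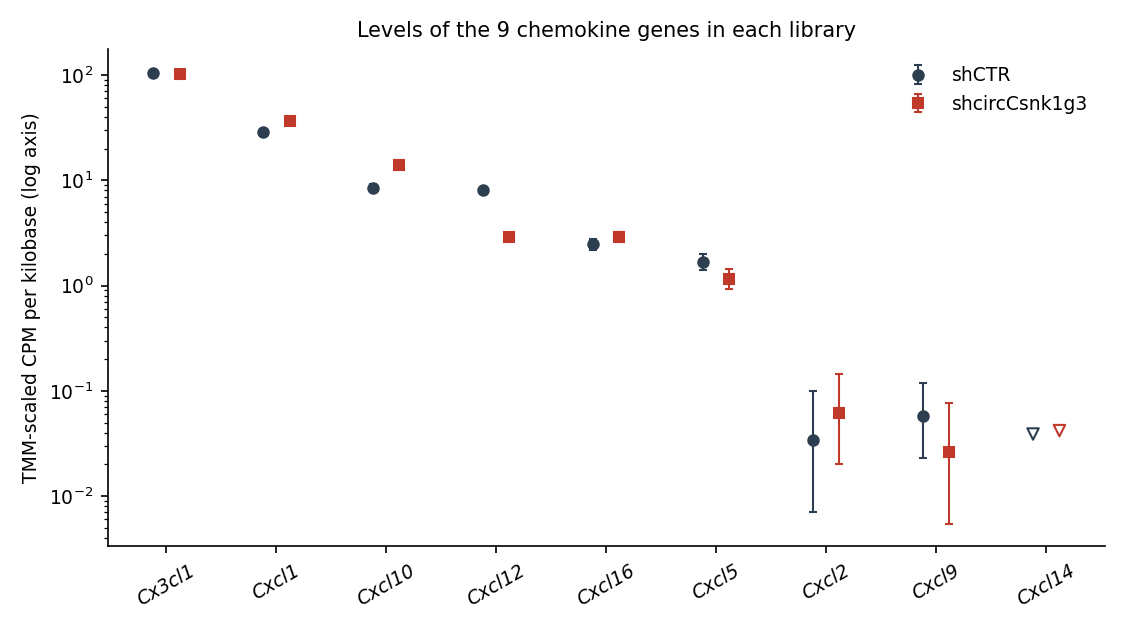
TMM-scaled CPM per kilobase (log axis) of the 9 chemokine genes in shCTR cells (circles) and the shcircCsnk1g3 library (squares), with Poisson 95% intervals of the counts as bars and open triangles at the level of 3 counts for Cxcl14, which had no count. Cxcl12 is the gene whose points lie farthest apart among those with more than 10 counts, at 8.16 and 2.86 CPM per kilobase.

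Among the CXCR2 ligands, Cxcl1 was higher and Cxcl5 lower in shcircCsnk1g3 cells. Cxcl1 (ENSMUSG00000029380, chr5:90891241-90893115, plus strand, GRCm38) had 2694 counts in shcircCsnk1g3 cells and 2282 in shCTR cells, or 68.7 and 54.0 CPM, a log2 fold change of 0.35 (0.27 to 0.43). Cxcl5 (ENSMUSG00000029371, chr5:90759360-90761624, plus strand) had 85 and 133 counts, or 2.17 and 3.15 CPM, a log2 fold change of -0.53 (-0.95 to -0.13). The ratio of the level of Cxcl1 to that of Cxcl5 was 31.6 in shcircCsnk1g3 cells and 17.1 in shCTR cells, so that Cxcl1 made up most of the CXCR2 ligand level of these members in both. Cxcl2 (ENSMUSG00000058427, chr5:90903871-90905938, plus strand) had 5 and 3 counts, a ratio of 1.80 with an interval from 0.349 to 11.6, and no difference was detectable at this depth. Cxcl2 shares 126 of its 50-base stretches, 5.84%, with Cxcl3, so reads of that part may have been divided between them when counts were estimated. None of the other members shared such a stretch with another member or with Cxcl3.

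The CXCR3 ligands were Cxcl10, which was higher in shcircCsnk1g3 cells, and Cxcl9, which was barely measured. Cxcl10 (ENSMUSG00000034855, chr5:92346638-92348889, minus strand) had 1226 counts in shcircCsnk1g3 cells and 804 in shCTR cells, or 31.3 and 19.0 CPM, a log2 fold change of 0.71 (0.59 to 0.85) and 1.64-fold on the linear scale. Of 6945 genes with at least as many summed counts, 33 had a log2 fold change at least as high, Cxcl10 included. Its exons overlap those of Art3 on the opposite strand over 5.91% of their length, and Art3 had 2 and 0 counts. Cxcl9 (ENSMUSG00000029417, chr5:92321347-92328079, minus strand) had 3 counts in shcircCsnk1g3 cells and 7 in shCTR cells, a ratio of 0.462 with an interval from 0.077 to 2.02. That interval holds the ratio of Cxcl10, so whether these 2 ligands differed could not be told at this depth.

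Cxcl12 showed the largest difference of the 9 genes, and in the opposite direction from Cxcl10. Cxcl12 (ENSMUSG00000061353, chr6:117168535-117181367, plus strand) had 632 counts in shcircCsnk1g3 cells and 1939 in shCTR cells. The level was 16.1 CPM against 45.9, a log2 fold change of -1.51 (-1.64 to -1.38), or 2.84-fold lower. Of the 12941 genes that reached 10 counts in either library, 12818 had a higher log2 fold change and 122 a lower one. Among the 6181 genes with at least as many summed counts as Cxcl12, 5 were as low, Cxcl12 included. No protein-coding gene of the annotation starts within 100 kb of it. Cxcl14 (ENSMUSG00000021508, chr13:56288643-56296551, minus strand), listed with Cxcl12 as a constitutively made chemokine, had 0 counts in both libraries.

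Of the transmembrane chemokines, Cx3cl1 was nearly level between the libraries, while counting error left it open whether Cxcl16 differed. Cx3cl1 (ENSMUSG00000031778, chr8:94772009-94782427, plus strand) had 13438 counts in shcircCsnk1g3 cells and 14747 in shCTR cells, or 343 and 349 CPM. Its log2 fold change was -0.03 (-0.06 to 0.01), the narrowest interval of the group, and 456 tested genes, Cx3cl1 included, had at least as many summed counts. Cxcl16 (ENSMUSG00000018920, chr11:70453983-70459984, minus strand) had 307 and 282 counts, or 7.83 and 6.67 CPM, a log2 fold change of 0.23 (-0.01 to 0.47). Over 18.3% of the length of its exons, Cxcl16 overlaps exons of Zmynd15 on the opposite strand, which had 26 and 23 counts. The kit marks strand, but whether the counting used it was not given in the sources used here.

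Of the 9 members, 6 passed the minimum of 10 counts in either library. At least 2-fold lower was 1 of the 6, Cxcl12, where 2.55% of all tested genes were, and at least 2-fold higher were 0 of the 6, against 2.13% of all. At a threshold of 1.5-fold, Cxcl10 was the only member higher (5.39% of all genes) and Cxcl12 the only member lower (6.31%). The counting intervals of 2 members, Cxcl1 and Cxcl10, lay above 0, and those of 2, Cxcl5 and Cxcl12, below it. With total counts in place of TMM, 3 members lay above 0, the third being Cxcl16 at 0.26. Among all tested genes 26.9% lay above and 28.2% below, so an interval that leaves out 0 was common in these deep libraries. The median log2 fold change of the 6 members was 0.10, and that of all tested genes 0.00. Summed over the 9 members, the level was 469 CPM in shcircCsnk1g3 cells and 478 in shCTR cells, which is largely the level of Cx3cl1.

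**Figure D2:**
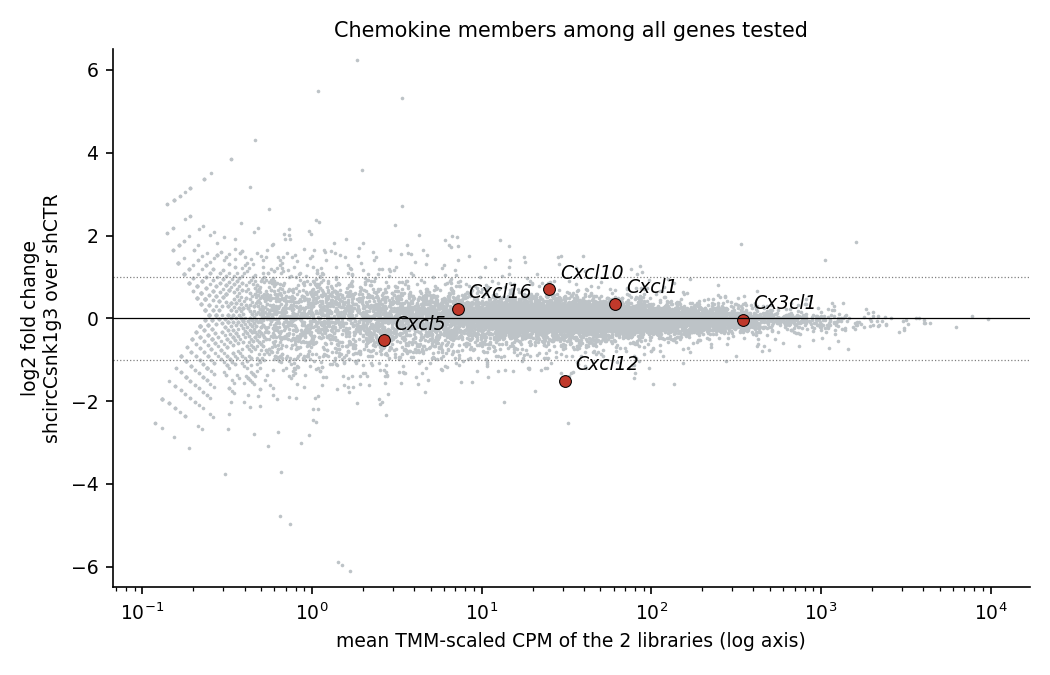
Log2 fold change (shcircCsnk1g3 over shCTR) of the 12941 tested genes against their mean TMM-scaled CPM in the 2 libraries (log axis), with the 6 tested members in red and dotted lines at 2-fold. Cxcl12 at -1.51 lies below the bulk of genes of its abundance, while Cx3cl1 at -0.03 lies in the middle of it.

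The receptors of these ligands were also read in the sarcoma cells. Of 9 receptor genes, 4 passed the count minimum, namely Cxcr3, Cxcr4, Cxcr6 and Ackr3. Cxcr3, the receptor of CXCL9 and CXCL10, had 6 counts in shcircCsnk1g3 cells and 23 in shCTR cells, a log2 fold change of -1.55 (-3.42 to -0.49) on very few counts, and it passed the minimum only through shCTR cells, where it was higher. The other receptors differed by less than 1.5-fold and are named here after their values were seen. Cxcr6, the receptor of CXCL16, had 1627 and 1303 counts, a log2 fold change of 0.43 (0.32 to 0.53). Ackr3, the scavenger of CXCL12, had 4327 and 4872 counts (-0.06, from -0.12 to -0.00), and Cxcr4, the signaling receptor of CXCL12, had 332 and 339 (0.08, from -0.15 to 0.30). The receptors of Cxcl12 lay within 0.08 of no change on the log2 scale, beside -1.51 for the ligand. Cxcr2 had 1 count in each library and Cx3cr1 had 0 and 2, so the receptors for Cxcl1 and for Cx3cl1 were at the floor of 3 counts.

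Of 6 genes for proteases that release or trim these chemokines, 4 passed the count minimum and 2 were at or under 3 counts in both libraries. The 4 log2 fold changes ran from 0.01 to 0.33, below 1.5-fold in each. Adam10, a protease that sheds CX3CL1 and CXCL16 from the membrane, had 4616 counts in shcircCsnk1g3 cells and 4920 in shCTR cells, a log2 fold change of 0.02 (-0.04 to 0.07). Adam17, another sheddase of CX3CL1, had 3951 and 3813 counts (0.16, from 0.09 to 0.22). Dpp4, which trims CXCL10 and CXCL12, had 1 and 0 counts. Shedding itself is not visible in RNA.

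**Figure D3:**
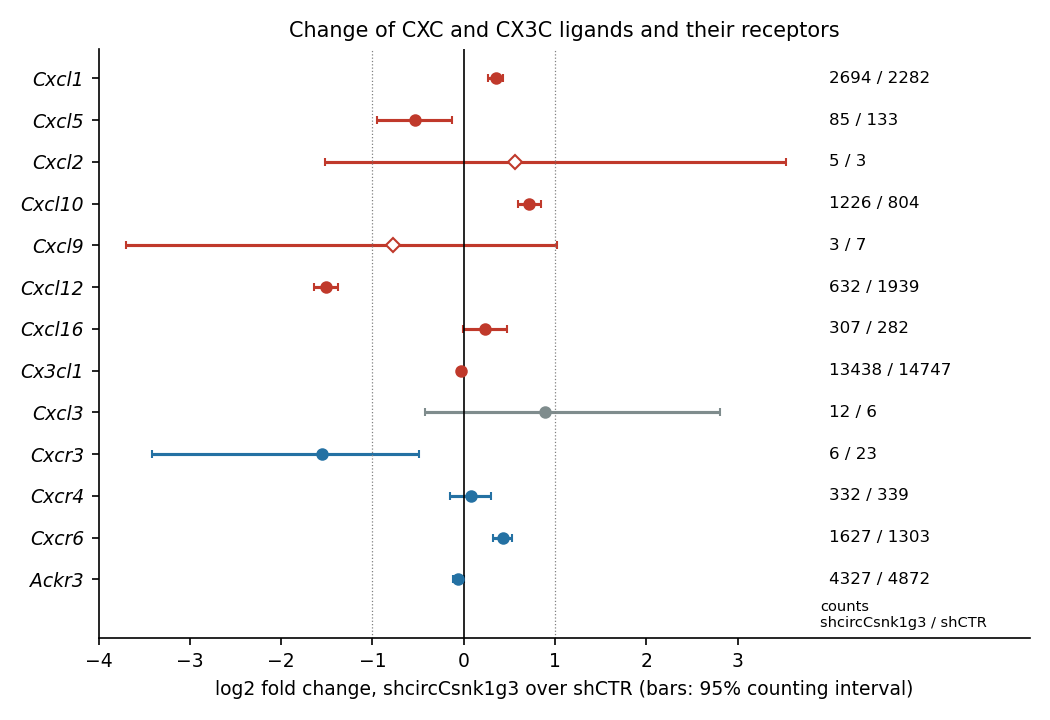
Log2 fold change (shcircCsnk1g3 over shCTR) with the 95% counting interval for 8 members (red), Cxcl3 (grey) and 4 receptors (blue). Open diamonds mark genes under the count minimum, dotted lines mark 2-fold, and the counts of both libraries stand at the right. Cxcl12 lies at -1.51 with an interval far from 0, whereas its receptors Cxcr4 and Ackr3 lie at 0.08 and -0.06.

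On chromosome 5 the members sit in separate groups of chemokine genes, and within these groups neighboring genes differed strongly in level. Around Cxcl1, the start of Cxcl5 lies 132 kb before it and that of Cxcl2 12.6 kb after it. Between Cxcl5 and Cxcl1 lie the CXC genes Ppbp, with 0 counts in shcircCsnk1g3 cells and 4 in shCTR cells, Pf4 and Cxcl15, with 0 in both, and Cxcl3, with 12 and 6 counts and a log2 fold change of 0.89 (-0.42 to 2.81). Cxcl1 had 2282 counts in shCTR cells beside 3 for Cxcl2 and 6 for Cxcl3, and the same kappaB run was found in the promoter windows of all 3. What set their levels apart was not tested. Mthfd2l, a gene of mitochondrial folate metabolism that starts 39.9 kb after Cxcl1, had 259 counts in shcircCsnk1g3 cells and 453 in shCTR cells. Its log2 fold change of -0.69 (-0.92 to -0.48) was opposite in sign to that of Cxcl1.

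Around Cxcl10, the start of Cxcl9 lies 20.8 kb away on the same strand. The other neighbors with counts differed little between the libraries. Sdad1 had 2761 and 2680 counts (log2 fold change 0.15, from 0.07 to 0.23), Naaa 419 and 457 (-0.02, from -0.21 to 0.18) and Nup54 1888 and 1871 (0.12, from 0.03 to 0.21). Cxcl10 at 0.71 was higher than each of these. Of the other CXC ligands in the list, Cxcl17 had 1 and 3 counts, Cxcl13 had 0 in both, and Cxcl11 was not analysed here.

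**Figure D4:**
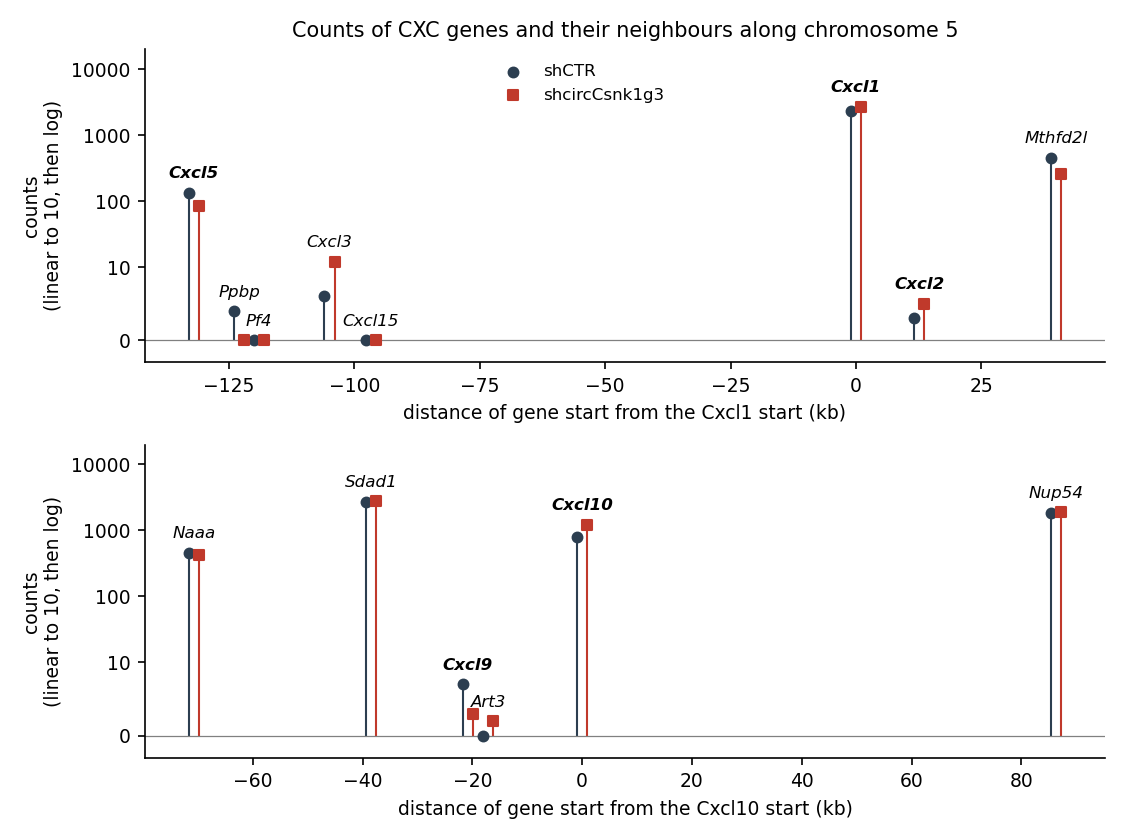
Counts of chemokine genes and their neighbors on chromosome 5 in the shCTR (circles) and shcircCsnk1g3 (squares) libraries, against the distance in kb of each gene's start from that of Cxcl1 (top) or Cxcl10 (bottom), with members in bold and a count axis that is linear to 10 and logarithmic above. Cxcl1 reaches 2694 and 2282 counts while Cxcl2, 12.6 kb away, has 5 and 3.

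The pathways that drive inflammatory chemokines were described by lists of their components. Of 15 NF-kappaB genes (subunits, inhibitors, kinases and the upstream genes Myd88 and Traf6), all were tested, 8 had an interval above 0 and 0 had one below. Of all tested genes, 26.9% and 28.2% did. Those shares also cover genes with few counts, whose intervals are wider, so here and in the lists below they are no matched baseline. The median log2 fold change of the NF-kappaB list was 0.10, with a range from -0.12 to 0.49, and none reached 1.5-fold in either direction. The largest values, named after they were seen, were those of Tnfaip3, an inhibitor that NF-kappaB itself induces, at 0.49 (0.33 to 0.65), and Nfkbie, another inhibitor, at 0.38 (0.23 to 0.53). Of 14 interferon receptors, JAK kinases, STAT and IRF factors, 13 were tested, 7 had an interval above 0, 2 below, and 2 were at least 2-fold higher, where 2.13% of all tested genes were. The median of the interferon list was 0.16, with a range from -0.12 to 1.29. Irf7, the inducible regulator of interferon genes, had 336 counts in shcircCsnk1g3 cells and 147 in shCTR cells, a log2 fold change of 1.29 (1.02 to 1.59). Irf9, the DNA-binding subunit of the complex that recognizes the interferon-stimulated response element, had 2196 and 1073 counts (1.14, from 1.03 to 1.25), and its partner Stat2 had 1290 and 756 (0.88, from 0.75 to 1.01). Cxcl10, whose promoter window holds that motif's core, had a smaller log2 fold change, 0.71, than these factors.

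Chemokine mRNAs are short-lived, and proteins that bind AU-rich or stem-loop elements set their decay. Of 9 such regulators, 2 had an interval above 0 and 2 below, near the 26.9% and 28.2% of all tested genes, with a median log2 fold change of -0.04 and a range from -0.38 to 0.15, so that none reached 1.5-fold. Zfp36, which encodes the decay factor tristetraprolin, had 1145 counts in shcircCsnk1g3 cells and 1109 in shCTR cells (0.15, from 0.03 to 0.27). Zc3h12a, the nuclease regnase-1, had 1342 and 1537 (-0.09, from -0.19 to 0.02).

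For comparison, the CC chemokines, the other large family, were read in the same libraries. Of 18 genes, 7 were tested, 2 had an interval above 0 and 1 below (26.9% and 28.2% of all tested genes), and the median log2 fold change was 0.14 (-0.07 without the count minimum and -0.02 in the deposited TMM-scaled table). Ccl7, a monocyte attractant, had 3987 counts in shcircCsnk1g3 cells and 2587 in shCTR cells, a log2 fold change of 0.73 (0.66 to 0.80), close to the 0.71 of Cxcl10. Ccl2, its neighbor in the genome and also a monocyte attractant, had 14889 and 11454 counts (0.49, from 0.45 to 0.52), and Ccl5, a T cell attractant, had 618 and 787 (-0.24, from -0.40 to -0.09). The summed level of the CC genes was 514 CPM in shcircCsnk1g3 cells and 367 in shCTR cells, beside 469 and 478 CPM for the CXC and CX3C members. These sums are not divided by transcript length, so they do not rank the families by level. Per kilobase, Ccl2 stood at 346 CPM in shcircCsnk1g3 cells and 247 in shCTR cells, above Cx3cl1 at 103 and 105. No tested CC gene was 2-fold lower, and the lowest was at -0.25, against -1.51 for Cxcl12. With 1 library each, whether the families differ was not tested.

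**Figure D5:**
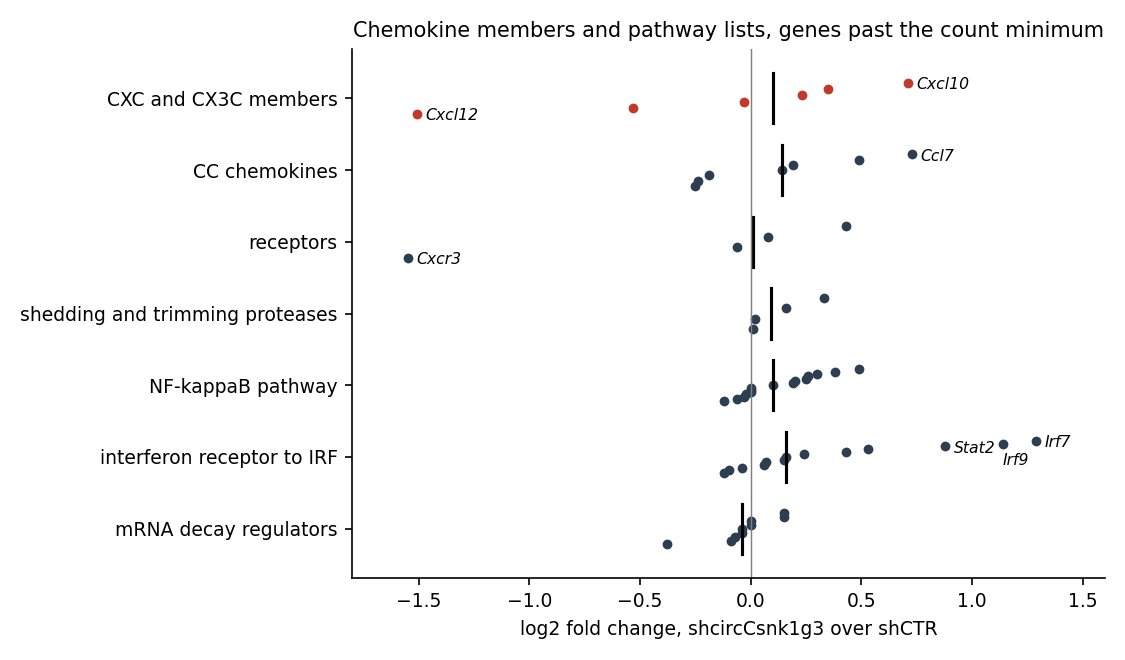
Log2 fold change (shcircCsnk1g3 over shCTR) of the tested genes of the members and of 6 pathway and family lists, 1 point per gene, with the list's median as a black bar and genes at about 1.5-fold or more named. The medians of these 7 lists lie between -0.04 and 0.16, and Cxcl12 at -1.51 is far below the other members. Cxcr3 at -1.55 rests on 6 and 23 counts and passed the count minimum only through shCTR cells.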

How the data were processed

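Poly(A) RNA of 2 libraries of mouse sarcoma cells was sequenced by the authors, who aligned reads to GRCm38 with STAR and estimated counts per gene with RSEM. The annotation release was not given in the sources used here. The estimated counts deposited by the authors are whole numbers without normalization, and 92 spike-in rows with 0% of the counts were left out. The other table the authors deposited holds TMM-scaled CPM, a signal, for 11624 genes and served as an alternative. TMM factors came from edgeR 4.0.16, run in R 4.3.3, from genes that reached 10 counts in either library. Intervals were computed with scipy 1.17.1 and figures drawn with matplotlib 3.10.9 in python 3.11.15. Log2 fold changes had a prior count of 2 and exact Clopper-Pearson intervals. The half-width of such an interval was 1.42, 0.41 or 0.13 on the log2 scale at 10, 100 or 1000 counts in each library. The steps were tested on simulated counts that held counting error only, so that test does not cover spread between cultures or libraries. Positions and lengths came from GENCODE M21, where 25251 of 25509 identifiers were found.

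The members and lists were chosen with earlier results of these data known. All 9 members and Csnk1g3 are named, and of each list at most 4 genes with a change of at least 1.5-fold and an interval without 0. Other genes were named after their values were seen. Genes with a like pattern were not sought, since over 2 libraries every pair of genes correlates perfectly. Alternatives were DESeq2 1.42.0 size factors, total counts, the TMM-scaled table, other prior counts, count minimums, thresholds, intervals and lengths. The length of the longest coding transcript was added after seeing the data. Protein sequences were not used here. A result for 1 further promoter motif is not reported here.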

Additional observations from a re-analysis of the deposited data

How the results depend on the processing

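With 1 library per condition nothing could be left out in turn. No paired analysis was possible because each group has 1 library and the comparison comes from no test. The log2 fold changes of the 6 tested members stayed within their counting intervals under all 8 alternatives of scaling, prior count and filter. Cxcl12 ranged from -1.51 to -1.48, Cxcl10 from 0.71 to 0.75, Cxcl1 from 0.34 to 0.38, Cxcl5 from -0.54 to -0.49, Cxcl16 from 0.22 to 0.26 and Cx3cl1 from -0.03 to 0.00. The numbers of all genes at least 2-fold higher and lower, 275 and 330, were 107 and 168 in the deposited TMM-scaled table, 150 and 171 with a prior count of 10, 732 and 623 without a count filter, 132 and 157 with at least 50 summed counts, and 60 and 79 with at least 200. At 1.5-fold they were 698 and 817, with 1 member higher, and at 4-fold 49 and 52, with 0 members lower. The median of the CC chemokines was -0.07 without a count filter and -0.02 in the deposited table, and the cause was not tested. With total counts, 3 members had an interval above 0 instead of 2. With merged exons as length, the levels of Cxcl12 were 1.97 and 5.61 CPM per kilobase and those of Cx3cl1 87.2 and 88.8 (shcircCsnk1g3 and shCTR), so that Cxcl12 then stood below Cxcl16, at 2.59, in shcircCsnk1g3 cells. Of 158 values recomputed under these alternatives, 133 stayed within 1.5 times for a count, within the counting error for a gene, or, for a list's median, within the typical counting error of its genes, a wide margin that the change of sign to -0.02 also met. Counts limit Cxcl2, Cxcl9, Cxcl14 and Cxcr3.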

Other observations

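Genes about as abundant as Cxcl12 or more so that were also at least as low were few, and they are given here after their values were seen. Acan, which encodes the cartilage proteoglycan aggrecan, had 372 counts in shcircCsnk1g3 cells and 2331 in shCTR cells, a log2 fold change of -2.53 (-2.70 to -2.38). Tgfbr2, which encodes the type II receptor of TGF-beta, had 2013 and 6544 counts (-1.59, from -1.67 to -1.52). Sod3, which encodes the extracellular superoxide dismutase, had 656 and 2072 counts (-1.55, from -1.68 to -1.42), and Dazap2 had 2666 and 8629 (-1.59, from -1.65 to -1.52). With Cxcl12 at -1.51 these make up the 5 such genes of 6181.

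Of the 33 genes at least as abundant as Cxcl10 and at least as high, the 6 with the largest log2 fold changes are given in order, also after their values were seen. Yam1 had 99090 counts in shcircCsnk1g3 cells and 29819 in shCTR cells (log2 fold change 1.84) and Lars2 had 20448 and 6360 (1.79). Apol9a followed with 2304 and 870 counts (1.51), Col4a6, a chain of basement membrane collagen, with 1695 and 644, and Apol9b with 1618 and 619 (1.49). Apol9a and Apol9b are close paralogs, so their separate counts are uncertain. Gm42418, a locus known to collect reads of ribosomal RNA, had 60389 and 24337 counts (1.42). The part of such reads in the counts of the other genes given here, Yam1 and Lars2 among them, was not tested. Nor was their part in the chemokine values.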
